A study of Mus musculus with 3 samples.

Results

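The genes described here build the tight junctions and desmosomes of epithelial cells. They were the 40 genes, of 17097 with a probe set of their own, whose symbol belongs to the claudins (Cldn), the zonula occludens scaffolds (Tjp), the desmogleins (Dsg), desmocollins (Dsc) or plakophilins (Pkp), or is Ocln, F11r, Cgn, Marveld2, Marveld3, Pard3, Pard6b, Dsp or Jup. Choice by symbol used no measured value. Expression was measured on 3 Affymetrix arrays of 1 group, mouse mammary cells of embryonic day 14 (E14) with high surface CD49f and high green fluorescence, sorted from female embryos of the Lgr5-IRES-GFP line, in which the fluorescent protein is expressed from the Lgr5 locus. CD49f is the integrin alpha 6 chain, and Lgr5 is a receptor of the Wnt-amplifying R-spondins. RNA on an array came from all female embryos of 1 litter, pooled, and no other genotype, age or treatment was compared. Epidermis and mammary gland were digested together before the sort, and each sample had 813 or 2000 cells, without a statement of which had which.

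Tight junctions seal the space between neighbouring epithelial cells. Claudins form their strands and set which ions pass, occludin, tricellulin (Marveld2) and the junctional adhesion molecule JAM-A (F11r) share the membrane with them, and zonula occludens proteins and cingulin tie the strands to actin. Desmosomes are spot welds: desmogleins and desmocollins meet outside the cell, plakoglobin (Jup) and plakophilins bind their tails, and desmoplakin (Dsp) anchors the plaque to keratin filaments. In stratified epithelia the desmosomal cadherins change with the layer, Dsg2 and Dsc2 being typical of simple and basal cells, Dsg3 and Dsc3 of basal layers, and Dsg1 and Dsc1 of differentiated layers.

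A gene was called above background when its log2 value, minus a threshold taken on the same array, had a mean above 0 in limma's moderated test (one-sided, Benjamini-Hochberg adjusted p under 0.05 over all 17097 genes). The threshold was the 95th percentile of 78 olfactory and vomeronasal receptor genes, at log2 6.29, 6.23 and 6.22 on replicates 1, 2 and 3. Below, "over the threshold" gives the mean log2 value minus this threshold. Where genes are set side by side, this distance is only a signal over background. It is not a comparison of transcript amounts, because probe sets differ in how brightly they hybridise. The arrays' medians over all genes were 6.83, 6.82 and 7.02, so replicate 3 stood apart by 0.20. The sorted genes gave a signal on all arrays: Lgr5 stood at 10.27 ± 0.44 and Itga6, which encodes CD49f, at 10.37 ± 0.40 (SD, n = 3). Bulk RNA cannot tell fewer cells of a type from less RNA per cell. With 3 arrays, their number limited the precision, and the p-values measure the spread between these pools.

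Of the 40 junction genes, 18 were above background, beside 52.5% of all genes, so their share lay near that of genes at large. Their median was 0.49 over the threshold, against 0.63 for all genes. The number depended on the background: 10 of 40 passed with genes restricted to unrelated tissues as background (34.4% of all genes), and 9 of 40 with the brightest antigenomic control probe set as threshold (31.6% of all genes). It was 14 of 40 with the 99th percentile of receptor genes (45.8% of all genes) and 21 of 40 when 4 pseudogenes were left out of the receptor set (55.1% of all genes). The 8 genes Cldn4, Cldn6, Cldn7, Marveld2, Dsg2, Dsp, Jup and Pkp4 were above background in the reported setting and in each of the 15 alternative settings. Another 16 genes were called in none of these settings.

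**Figure D1:**
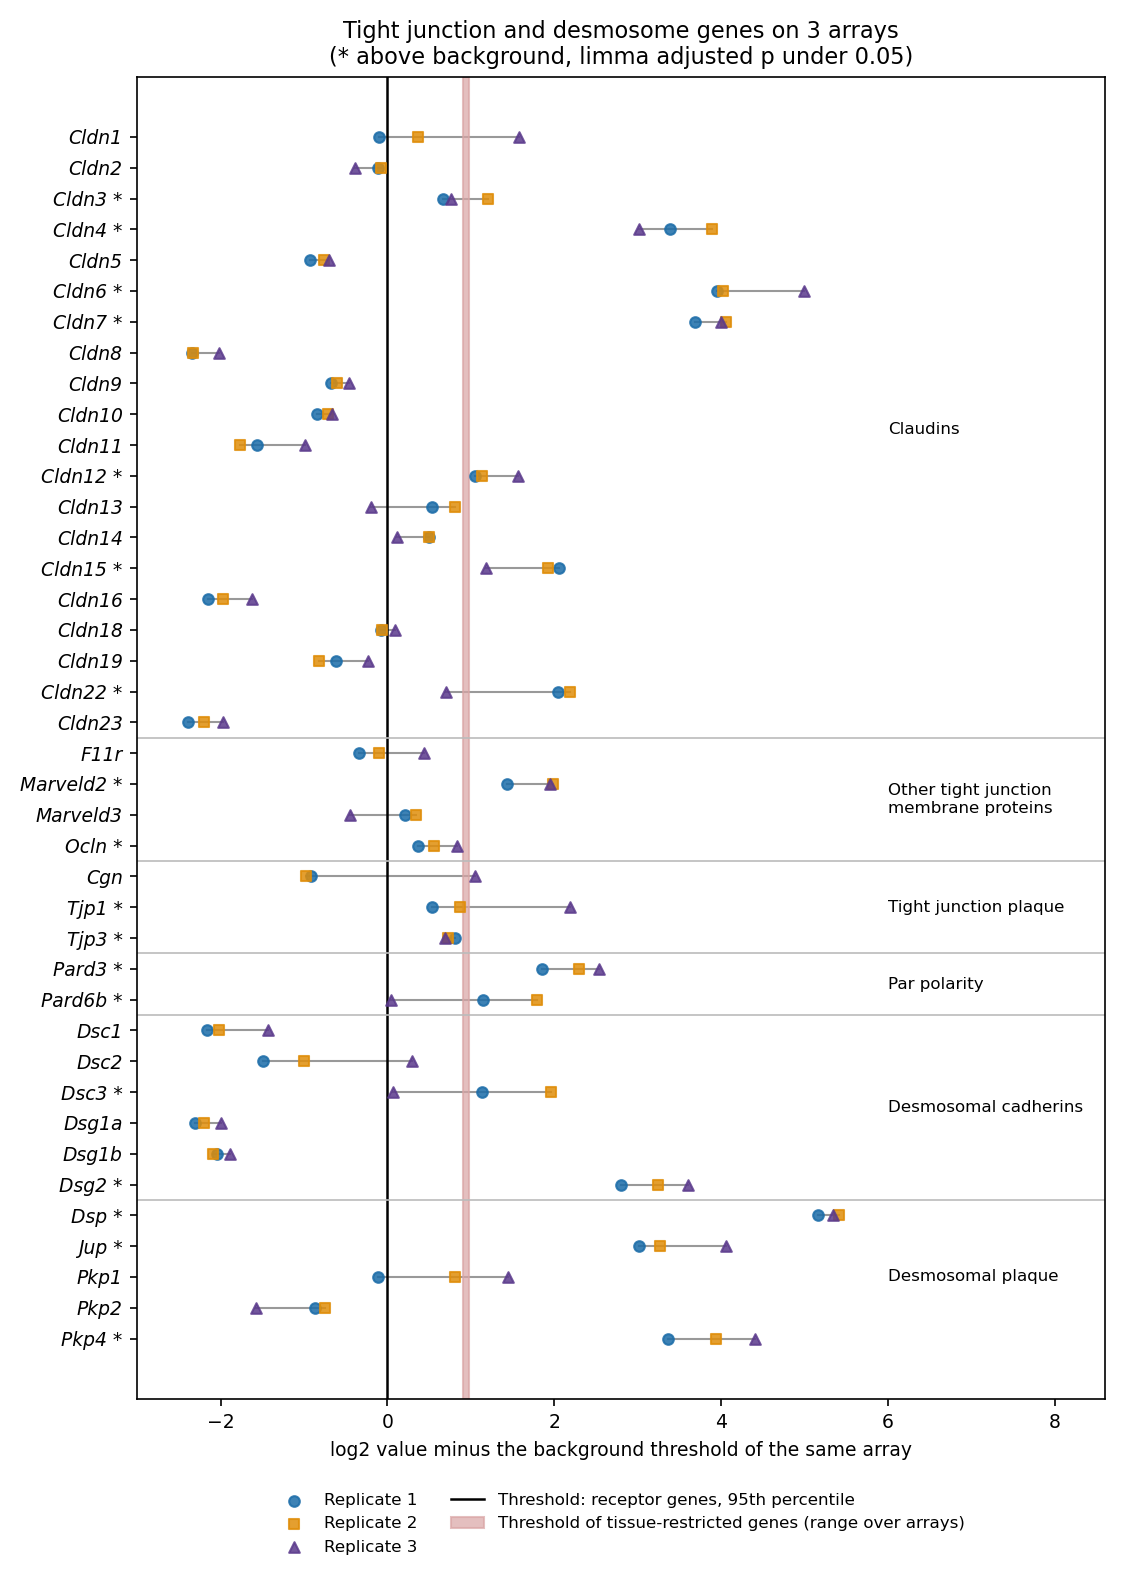
Log2 value minus the background threshold of the same array (horizontal axis) for each of the 40 genes, grouped by role, with 1 point per array and a line over the range of the 3 arrays. The vertical line at 0 is the threshold of receptor genes, the shaded band that of tissue-restricted genes, and an asterisk marks the 18 genes above background. Cldn4, Cldn6, Cldn7, Marveld2, Pard3, Dsg2, Dsp, Jup and Pkp4 are among the genes that lie right of the band on all arrays.

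Among claudins, 7 of 20 were above background, and 3 of them stood far over the threshold on all arrays. Cldn6, a claudin of embryonic epithelia, read 10.24, 10.26 and 11.21 (log2) on replicates 1, 2 and 3, which was 4.32 over the threshold (SE 0.24, adjusted p = 5.33e-05). Its signal was alike on replicates 1 and 2 and higher on replicate 3. Cldn7, a broadly expressed epithelial claudin, had 9.97, 10.30 and 10.22, which was 3.91 over the threshold (SE 0.13, adjusted p = 1.58e-05). Cldn4, which tightens the paracellular barrier in many epithelia, had 9.68, 10.12 and 9.24, or 3.43 over the threshold (SE 0.20, adjusted p = 6.26e-05). The array that read highest differed between these 3 genes, replicate 3 for Cldn6 and replicate 2 for Cldn4 and Cldn7.

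The other 4 claudins above background were closer to the threshold. Cldn15, a channel-forming claudin of the intestine, read 8.35, 8.16 and 7.41 (log2) on replicates 1, 2 and 3 (1.72 over the threshold, adjusted p = 0.000928), and was still called with tissue-restricted genes as background (adjusted p = 0.0198). Cldn22 had 8.34, 8.42 and 6.93 (adjusted p = 0.00536), so replicate 3 lay well under the others. Cldn12 had 7.34, 7.37 and 7.79 (adjusted p = 0.00108). Cldn3, often expressed with Cldn4, had 6.96, 7.44 and 6.98 (adjusted p = 0.00414). The last 3 were not called with tissue-restricted genes as background, at adjusted p of 0.0959 for Cldn22, 0.180 for Cldn12 and 1.00 for Cldn3. The Cldn3 signal came from a probe set marked by its name as one that may cross-hybridise, and without such probe sets Cldn3 was not called (-0.91 relative to the threshold).

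The remaining 13 claudins were not above background. Cldn1, a claudin of the epidermal barrier, read 6.19, 6.60 and 7.80 (log2) on replicates 1, 2 and 3, with replicate 1 under its threshold of 6.29 and replicate 3 far over it (0.61 over the threshold on average, adjusted p = 0.126). It was called without replicate 1 (adjusted p = 0.00564) and without replicate 2 (adjusted p = 0.0315). Cldn14, known from the inner ear and kidney, had 6.79, 6.73 and 6.34 (adjusted p = 0.0502), and Cldn13 had 6.83, 7.05 and 6.03 (adjusted p = 0.139). Both were called without replicate 3, with adjusted p of 0.000530 for Cldn14 and 0.000289 for Cldn13. They were also called without the receptor pseudogenes, with adjusted p of 0.0125 for Cldn14 and 0.0438 for Cldn13. Cldn14 was called in 7 of the 15 alternative settings. Cldn18, a claudin of stomach and lung, stood at 6.23 ± 0.08 and the cation-pore claudin Cldn2 at 6.06 ± 0.20, both within 0.20 of the threshold (SD, n = 3).

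Several claudins tied to other organs stayed under the threshold on all arrays. Cldn5, the main claudin of endothelium, stood at 5.45 ± 0.08 (SD, n = 3). The kidney claudins Cldn16 (4.33 ± 0.23), Cldn19 (5.69 ± 0.29), Cldn10 (5.51 ± 0.06) and Cldn8 (4.02 ± 0.16) were not above background. Cldn11, known from myelin and Sertoli cells, stood at 4.81 ± 0.39. Cldn9 stood at 5.67 ± 0.08 and Cldn23 at 4.06 ± 0.18. None of these 8 was called in any alternative setting that tested it.

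The other membrane proteins of the tight junction were partly detected, 2 of 4. Marveld2, which encodes tricellulin of the corners where 3 cells meet, read 7.73, 8.22 and 8.17 (log2) on replicates 1, 2 and 3 (1.79 over the threshold, SE 0.17, adjusted p = 0.000344). Ocln, the occludin gene, had 6.66, 6.79 and 7.06 (0.59 over the threshold, adjusted p = 0.0128). The occludin call was lost without replicate 2 (adjusted p = 0.0693) and with tissue-restricted genes as background. Its relative Marveld3 had 6.503, 6.581 and 5.770 (adjusted p = 0.717), with replicate 3 under its threshold, and was called without replicate 3 (adjusted p = 0.0115). F11r, the JAM-A gene, had 5.95, 6.13 and 6.66, on average at the threshold itself (adjusted p = 0.823).

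Of the cytoplasmic scaffolds, Tjp1 and Tjp3 were above background and Cgn was not. Tjp1, which encodes ZO-1, read 6.83, 7.11 and 8.41 (log2) on replicates 1, 2 and 3 (1.198 over the threshold, SE 0.35, adjusted p = 0.0200). Tjp3, which encodes ZO-3, had 7.10, 6.97 and 6.92 (adjusted p = 0.00276), a much narrower spread. Cgn, the cingulin gene, had 5.37, 5.26 and 7.27, so that replicate 3 alone exceeded its threshold. The range of Cgn over the arrays, 2.02, was the widest among the 40 genes. Neither Tjp1 nor Tjp3 was called with tissue-restricted genes as background, at adjusted p of 0.571 for Tjp1 and 1.00 for Tjp3.

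Both polarity genes of the set were above background. Pard3, the Par complex scaffold that helps place tight junctions, read 8.14, 8.53 and 8.76 (log2) on replicates 1, 2 and 3 (2.23 over the threshold, SE 0.18, adjusted p = 0.000194). Pard6b, a partner of atypical protein kinase C in the same complex, had 7.44, 8.03 and 6.27 (adjusted p = 0.0381). Replicate 3 of Pard6b barely exceeded its threshold, and without replicate 2 the call was lost (adjusted p = 0.0726). It was also lost with tissue-restricted genes (adjusted p = 0.981) or the antigenomic control as background, with the 99th percentile of receptor genes, and with the mean or the lowest of its probe sets, which left it called in 9 of the 15 alternative settings.

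Of 6 desmosomal cadherins 2 were above background, Dsg2 far over the threshold and Dsc3 near it. Dsg2 read 9.09, 9.48 and 9.83 (log2) on replicates 1, 2 and 3, which was 3.22 over the threshold (SE 0.19, adjusted p = 6.76e-05). Dsc3, the desmocollin of basal layers, had 7.43, 8.19 and 6.29 (1.05 over the threshold, SE 0.38, adjusted p = 0.0388), with replicate 3 just over its threshold. The Dsc3 call was lost without replicate 2 (adjusted p = 0.0712) and with tissue-restricted genes as background (adjusted p = 0.872). It was also lost with the antigenomic control, the 99th percentile of receptor genes, and the mean or the lowest of its probe sets. That left Dsc3 called in 9 of the 15 alternative settings. Dsc2 had 4.81, 5.24 and 6.51, exceeded its threshold on replicate 3 and was not above background. Dsg1a (4.08 ± 0.12), Dsg1b (4.24 ± 0.10) and Dsc1 (4.38 ± 0.36), which belong to differentiated layers, lay between -2.17 and -1.87 relative to the threshold (SD, n = 3). The Dsg1 genes are close paralogs, and their probes may pick up both transcripts, so their values are uncertain.

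The desmosomal plaque gave a signal far over the threshold for 3 of 5 genes. Dsp read 11.46, 11.65 and 11.56 (log2) on replicates 1, 2 and 3, 5.31 over the threshold (SE 0.10, adjusted p = 4.80e-06). Jup, whose product plakoglobin serves desmosomes and adherens junctions, had 9.31, 9.50 and 10.29 (3.45 over the threshold, SE 0.24, adjusted p = 0.000101). Pkp4, an armadillo protein found at adherens junctions and desmosomes, had 9.66, 10.17 and 10.63 (3.90 over the threshold, SE 0.22, adjusted p = 5.85e-05). All 3 were lowest on replicate 1 in the deposited values. Pkp1, the plakophilin of stratified epithelium, had 6.18, 7.04 and 7.67, with replicate 1 under its threshold (adjusted p = 0.0719). It was called without replicate 1 (adjusted p = 0.00153), without replicate 2 (adjusted p = 0.0486) and without the receptor pseudogenes (adjusted p = 0.0447). Pkp2, the plakophilin of heart and simple epithelia, had 5.43, 5.48 and 4.65 and was not above background.

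**Figure D2:**
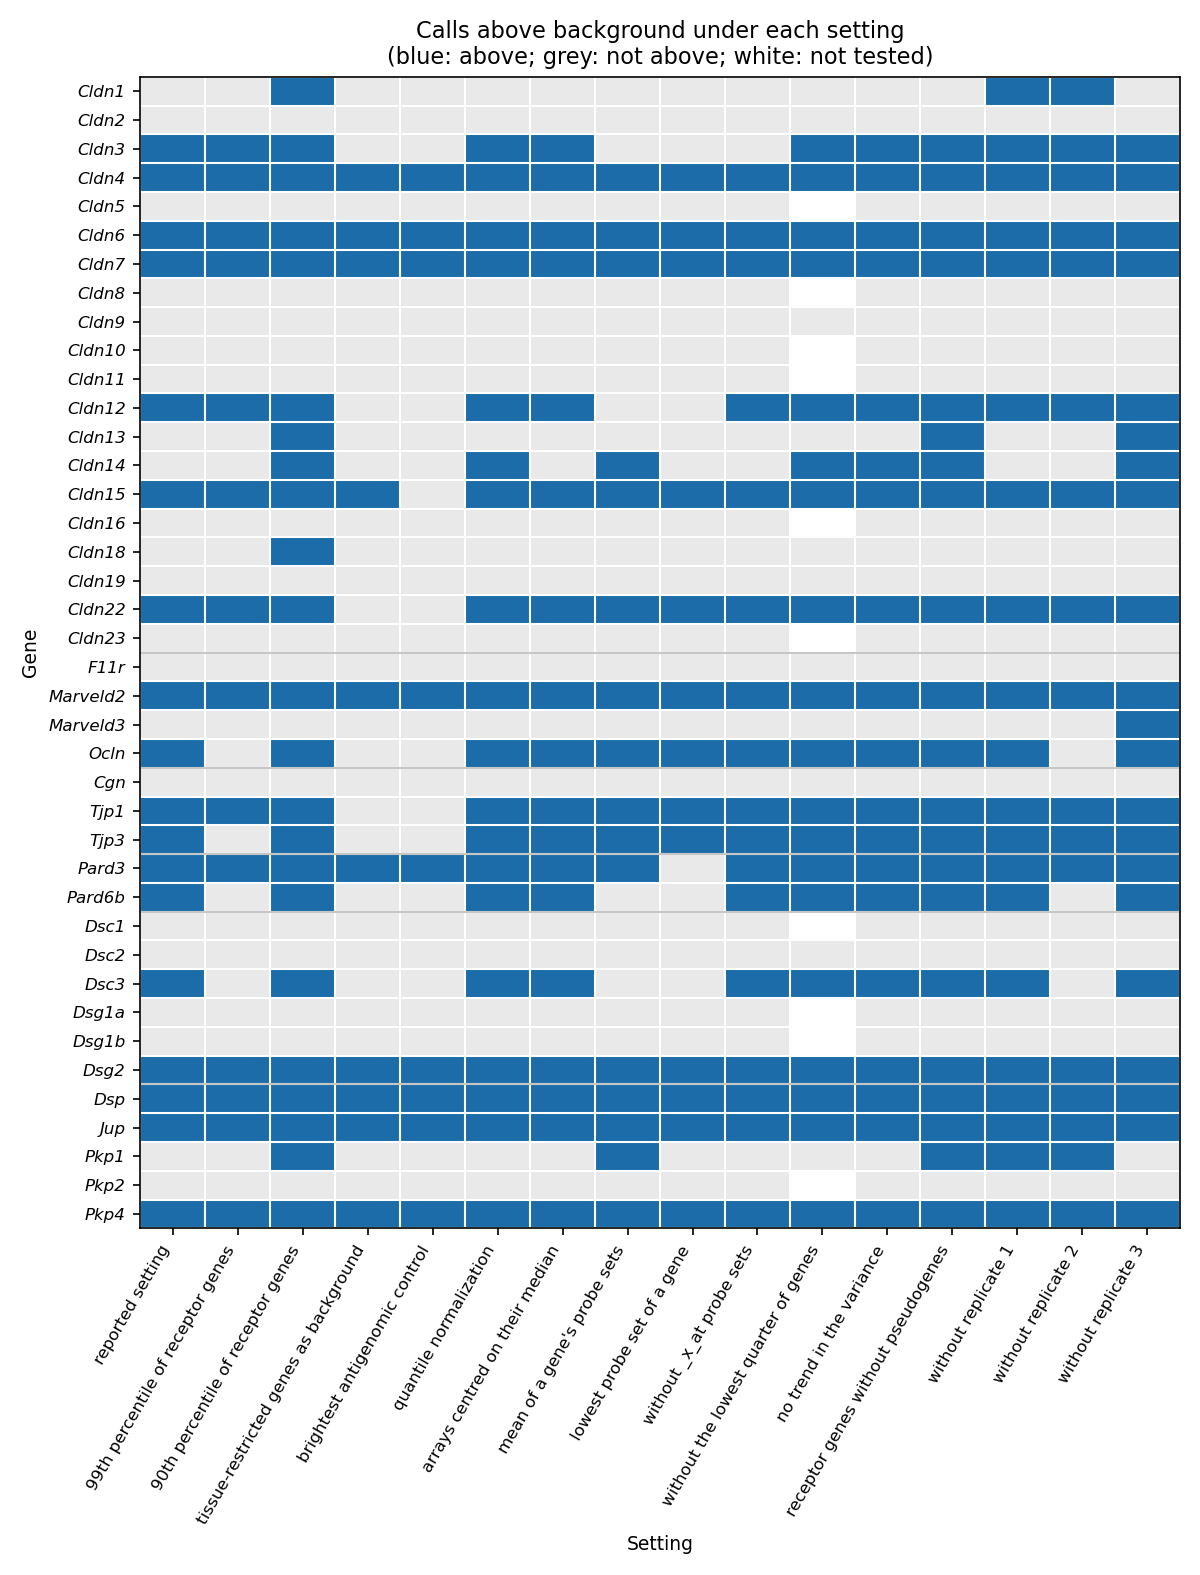
Call of each of the 40 genes (rows) in the reported setting and in 15 alternatives (columns), with blue for above background, grey for not above and white for genes not tested. Rows of Cldn4, Cldn6, Cldn7, Marveld2, Dsg2, Dsp, Jup and Pkp4 are blue throughout, and the columns for tissue-restricted genes and the antigenomic control hold 10 and 9 calls.

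Some members are measured by several probe sets, and these did not always agree. Of the 14 genes with more than 1 probe set, Dsg2 and Dsp had every probe set over the mean threshold, 5 (Cldn2, Cldn18, Dsc1, Dsc2 and Pkp2) had none over it, and 7 (Cldn1, Cldn3, Cldn12, Marveld3, Pard3, Pard6b and Dsc3) had probe sets on both sides. The 6 probe sets of Dsg2 lay between 1.502 and 3.22 over the threshold, and the 3 of Dsp between 2.39 and 5.31. Of the 4 probe sets of Pard3, 3 lay between 1.97 and 2.23 over the threshold and the other at -0.23. The second probe set of Cldn12 lay at -1.93 relative to the threshold, and that of Dsc3 at -0.54. For Dsc3 the probe sets also differed over the arrays: the brighter read lowest on replicate 3 (6.29), the dimmer lowest on replicate 1 (5.22).

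**Figure D3:**
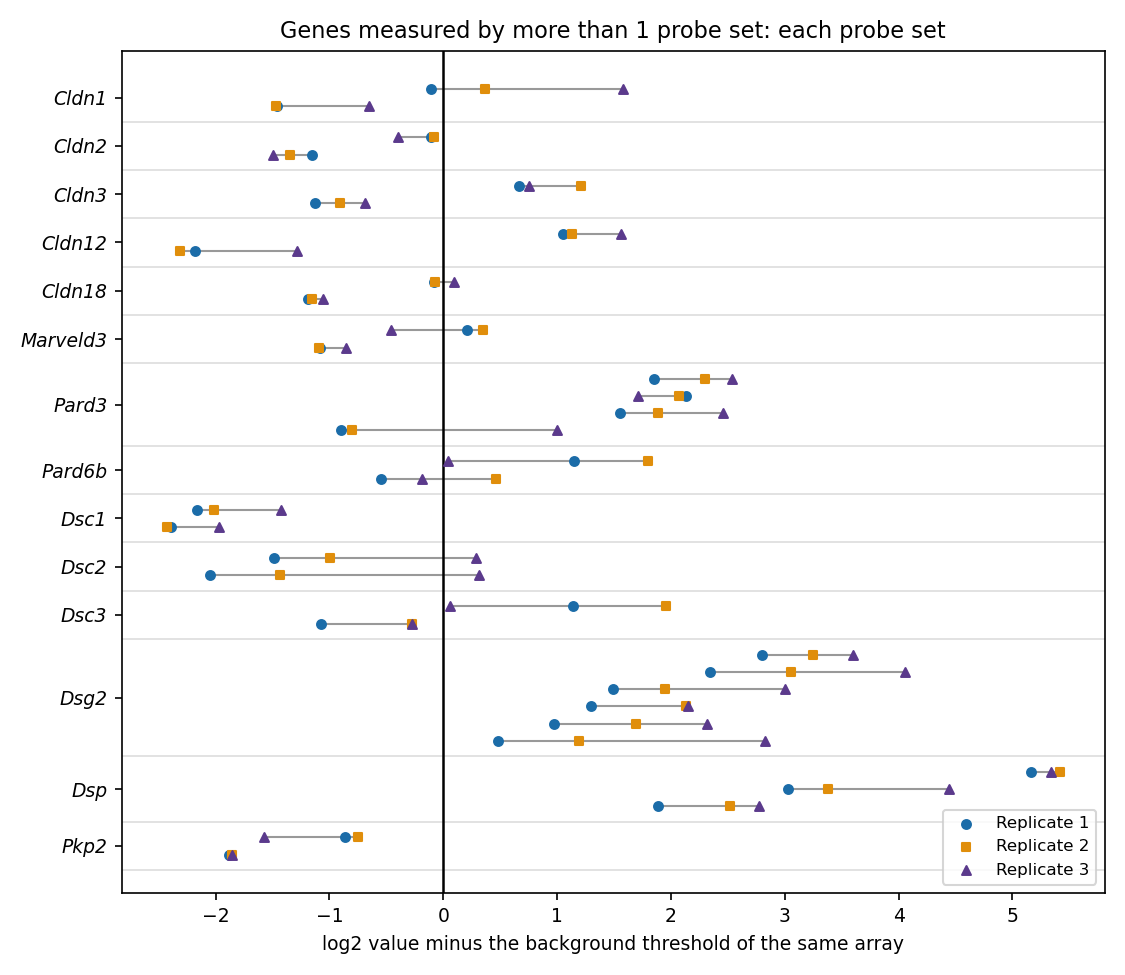
Log2 value minus the threshold of the same array (horizontal axis) for every probe set of the 14 genes with more than 1, with 1 point per array and a line over the range. All 6 probe sets of Dsg2 and all 3 of Dsp lie right of the threshold at 0, and both Dsc1 probe sets lie left of it.

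Of the 8 genes called in every setting, upstream sequences are shown for the 3 claudins and for Dsp, as examples with and without a repressor motif. Members of the Snail and Zeb families, known as repressors of junction genes, bind the E-box CAGGTG, which reads CACCTG on the other strand. They were measured here too: Snai1 stood at 7.20 ± 0.27, Snai2 at 7.61 ± 0.16, Zeb1 at 8.91 ± 0.25 and Zeb2 at 9.06 ± 0.60, all above background (SD, n = 3). Snai1 and Snai2 were not called with tissue-restricted genes as background. Dermal mesenchyme genes were above background in these pools as well (12 of 13), and which cells gave the repressor signal was not tested. The 250 bases before each RefSeq start (GRCm38.p6, 5′ to 3′ in the direction of the gene) follow for Cldn4, Cldn6, both starts of Cldn7 and Dsp, with E-boxes in capitals.
Cldn4 (chr5:134946935-134947184, minus strand): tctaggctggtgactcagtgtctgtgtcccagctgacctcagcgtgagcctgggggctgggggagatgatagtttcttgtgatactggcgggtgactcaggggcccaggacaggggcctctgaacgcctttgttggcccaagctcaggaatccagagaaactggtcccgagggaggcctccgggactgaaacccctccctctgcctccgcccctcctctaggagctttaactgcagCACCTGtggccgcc
Cldn6 (chr17:23679115-23679364, plus strand): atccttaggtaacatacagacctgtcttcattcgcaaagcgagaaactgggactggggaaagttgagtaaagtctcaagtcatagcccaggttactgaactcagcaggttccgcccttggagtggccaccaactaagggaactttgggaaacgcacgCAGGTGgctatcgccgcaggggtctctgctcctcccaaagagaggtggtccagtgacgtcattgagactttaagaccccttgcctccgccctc
Cldn7, start 1 (chr11:69964529-69964778, plus strand): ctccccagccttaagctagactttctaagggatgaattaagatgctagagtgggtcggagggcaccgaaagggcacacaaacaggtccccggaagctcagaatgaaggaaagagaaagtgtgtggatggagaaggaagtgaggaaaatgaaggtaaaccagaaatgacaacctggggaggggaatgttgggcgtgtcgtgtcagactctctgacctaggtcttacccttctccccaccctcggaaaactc
Cldn7, start 2 (chr11:69965171-69965420, plus strand): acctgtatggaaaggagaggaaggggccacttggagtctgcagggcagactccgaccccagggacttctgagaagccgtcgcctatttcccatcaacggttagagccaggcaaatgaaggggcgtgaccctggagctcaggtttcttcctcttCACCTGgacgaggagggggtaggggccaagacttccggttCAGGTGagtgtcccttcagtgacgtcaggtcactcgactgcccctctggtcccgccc
Dsp (chr13:38151044-38151293, plus strand): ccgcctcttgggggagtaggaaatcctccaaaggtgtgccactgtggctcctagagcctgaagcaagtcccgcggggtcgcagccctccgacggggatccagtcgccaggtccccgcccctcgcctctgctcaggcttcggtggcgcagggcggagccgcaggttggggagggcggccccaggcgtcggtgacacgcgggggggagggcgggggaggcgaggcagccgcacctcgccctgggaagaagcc
Cldn4 held an E-box starting 14 bases before its start, Cldn6 held it 93 bases before, and the second Cldn7 window held it 97 and 57 bases before. The other Cldn7 window and that of Dsp held none. All 4 genes were called in every setting. Among the others called in every setting, Marveld2 and Jup had none in their windows, Pkp4 had 1, and Dsg2 had no window. Promoter windows were found for 27 of the 40 genes. None was found for the desmosomal cadherins, Pkp1, Pkp2, Cldn8, Cldn9, Cldn13, Cldn23 or Marveld3. The counts that follow therefore leave these genes out. By call the loss was uneven: 16 of 18 genes above background had a window, and 11 of 22 not above it. An E-box on either strand was in 11 of the 40 windows of the 27 genes (27.5%), some of which overlap. It was in 17.2% of the 32851 windows of all genes. By call, 8 of 16 genes above background and 2 of 11 not above it had an E-box in at least 1 window, a description without a test. Genes had 1 to 3 windows each, which was not adjusted for. A match is a run of letters and not a measured binding site.

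Genes of the surrounding junction machinery were taken from lists of known roles, and each count stands beside 52.5% of all genes above background. Adherens junction genes reached 12 of 14, with a median of 3.502 over the threshold. Cdh1, the E-cadherin gene, read 7.02, 7.62 and 8.36 (log2) on replicates 1, 2 and 3, Cdh2 (N-cadherin) stood at 7.81 ± 0.46, Cdh3 (P-cadherin) at 9.52 ± 0.07 and the alpha-catenin gene Ctnna1 at 10.21 ± 0.12, whereas Ctnna2 (6.14 ± 0.57) and Ctnna3 (5.06 ± 0.18), the catenins of neurons and heart, were not above background (SD, n = 3). Other desmosome and keratin genes reached 8 of 9. Among them Perp, a desmosomal target gene of p63, stood at 10.28 ± 0.33, the plakin genes Ppl and Evpl at 7.42 ± 0.08 and 7.63 ± 0.10, and Kazn at 8.31 ± 0.35. Cdsn, the corneodesmosin gene of cornified layers, was at 5.84 ± 0.10 and not above background.

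Other tight junction genes reached 13 of 18. They included Jam3 (7.90 ± 0.38, SD, n = 3), the paracingulin gene Cgnl1 (7.58 ± 0.35) and the membrane-associated guanylate kinase genes Magi1 (8.80 ± 0.13) and Magi3 (8.10 ± 0.31). Jam2 (5.98 ± 0.63), Esam (6.02 ± 0.13) and Ildr1 (4.02 ± 0.19) were not above background. Polarity genes reached 11 of 13, such as Pard6a (7.28 ± 0.09), Pard6g (9.60 ± 0.45), Pard3b (8.34 ± 0.15) and the atypical protein kinase C gene Prkci (9.30 ± 0.25), and not Crb1 (6.13 ± 0.24) or Patj (5.62 ± 0.35). The polarity count was 6 of 13 with tissue-restricted genes and with the antigenomic control as background. Gap junction genes, which connect cells by channels, reached 2 of 11, namely Gja1 (11.15 ± 0.08) and Gjc1 (8.08 ± 0.33). Gja3 (6.07 ± 0.07), Gja4 (5.90 ± 0.12) and Gja5 (5.63 ± 0.29) were not above background. The gap junction count was 4 without replicate 3 and 5 with the 90th percentile of receptor genes.

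Transcription factors and splicing factors known to regulate junction genes reached 16 of 18. Trp63, which encodes p63, stood at 10.53 ± 0.39 (SD, n = 3). The Grainyhead-like genes Grhl1 (7.31 ± 0.38), Grhl2 (9.44 ± 0.86) and Grhl3 (9.52 ± 0.14), activators of epithelial junction genes, were above background together with the repressor genes Snai1, Snai2, Zeb1 and Zeb2. Ovol2 (6.03 ± 0.28) and Elf3 (6.11 ± 0.50) were not. Grhl1, Snai1 and Snai2 lost the call with tissue-restricted genes as background.

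Markers of other cell types were present beside the epithelial signal. All 8 sort and basal epithelial genes were above background, among them Krt5 (12.15 ± 0.16), Krt14 (11.38 ± 0.25) and Epcam (10.31 ± 0.40, SD, n = 3). Of 13 dermal mesenchyme genes 12 were above background, including the collagen genes Col1a1 (12.99 ± 0.15), Col1a2 (7.99 ± 0.09) and Col3a1 (12.76 ± 0.13), and Pdgfra (4.89 ± 0.55) was not. Epithelial and mesenchymal markers were thus both over the threshold on these arrays, and the part of mesenchymal RNA in the junction signal was not tested. Suprabasal and periderm genes reached 4 of 12, with Krt10 at 6.94, 7.70 and 9.18 on replicates 1, 2 and 3, Sbsn at 7.54 ± 0.29 and Grhl3 as above, whereas Krt1 (6.66 ± 0.34) and Krt4 (8.96, 8.26 and 5.50) were not above background by the test. The suprabasal count was 7 of 12 without replicate 3 and without the receptor pseudogenes, 8 with the 90th percentile of receptor genes, and 2 with tissue-restricted genes or the antigenomic control as background. Krt4 was called without replicate 3 (adjusted p = 2.41e-06) and without replicate 2 (adjusted p = 0.00643). Endothelial genes reached 2 of 10, Pecam1 (8.12, 8.30 and 6.47) and Egfl7 (7.29 ± 0.40), while Cdh5 (5.81 ± 0.27), Kdr (6.35 ± 0.35) and the endothelial claudin Cldn5 were not above background. Kdr was among the endothelial genes called without replicate 3 (adjusted p = 0.0497), where the endothelial count was 4 of 10. That count was 4 with the 90th and 1 with the 99th percentile of receptor genes, and 0 with tissue-restricted genes or the antigenomic control as background. Neural crest and nerve genes reached 3 of 9 (Sox10, Pmel and Tubb3), leukocyte genes 2 of 10 (Cd68 and Fcer1g) and erythroid genes 2 of 6 (Klf1 and Epor), and the pan-leukocyte gene Ptprc was at 4.03 ± 0.20. With tissue-restricted genes as background these 3 lists had 1 call each, and the erythroid count was also 1 without replicate 1 and without replicate 2.

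Litters differed in many junction genes, a comparison that cannot be tested because each litter was on 1 array. It was made after subtracting each array's median over all genes, which moves replicate 3 by 0.20 relative to the others. Replicates 1 and 2, whose sorted values differed by at most 0.099, were the pair most alike in distribution. The mark of 0.25 was chosen after values were seen. Here 13 of 40 junction genes were higher on replicate 2 than on replicate 1 by more than 0.25 (log2), beside 8.14% of all genes, and 1 (Cldn11) was lower by that much, beside 7.27% of all genes. The 13 were Cldn1, Cldn3, Cldn4, Cldn7, Marveld2, Tjp1, Pard3, Pard6b, Dsc2, Dsc3, Dsg2, Pkp1 and Pkp4. The difference was 0.87 for Pkp1, 0.77 for Dsc3, 0.52 for Pkp4, 0.50 for Marveld2, 0.45 for Cldn4 and 0.40 for Dsg2, and it was 0.02 for Cldn6. The median over the 40 genes was 0.13, against 0.00 for all genes. In the deposited values, without centring, all 6 probe sets of Dsg2 and all 3 of Dsp read lowest on replicate 1. So did 21 of the 35 probe sets, these included, of the junction genes with more than 1. The share over all genes was not computed, and probe sets of the same gene are not independent. After centring, the brightest Dsp probe set was lowest on replicate 3 (-0.20 relative to the other arrays) rather than on replicate 1 (-0.06).

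Markers moved with this difference. The 8 sort and basal epithelial genes had a median of 0.30 higher on replicate 2 than on replicate 1. Of these 8, 5 were above 0.25 and none below -0.25. The 9 other desmosome and keratin genes had a median of 0.34, with 6 above 0.25. Krt5 (0.34) and Krt14 (0.43) are in both lists, so these lists are not independent. The 13 dermal mesenchyme genes had a median of -0.11, with 1 above 0.25 and 3 below -0.25. The 12 suprabasal and periderm genes had a median of 0.19, with 5 above 0.25 and 1 below -0.25, and the 10 endothelial genes a median of -0.07, with 1 above 0.25 and 3 below -0.25. The mean log2 value of the basal list was 10.54 on replicate 2 and 10.29 on replicate 1, and that of the mesenchyme list 10.17 on replicate 2 and 10.28 on replicate 1. The part of these markers in the difference of the junction genes was not tested, and litter and number of sorted cells cannot be told apart.

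**Figure D4:**
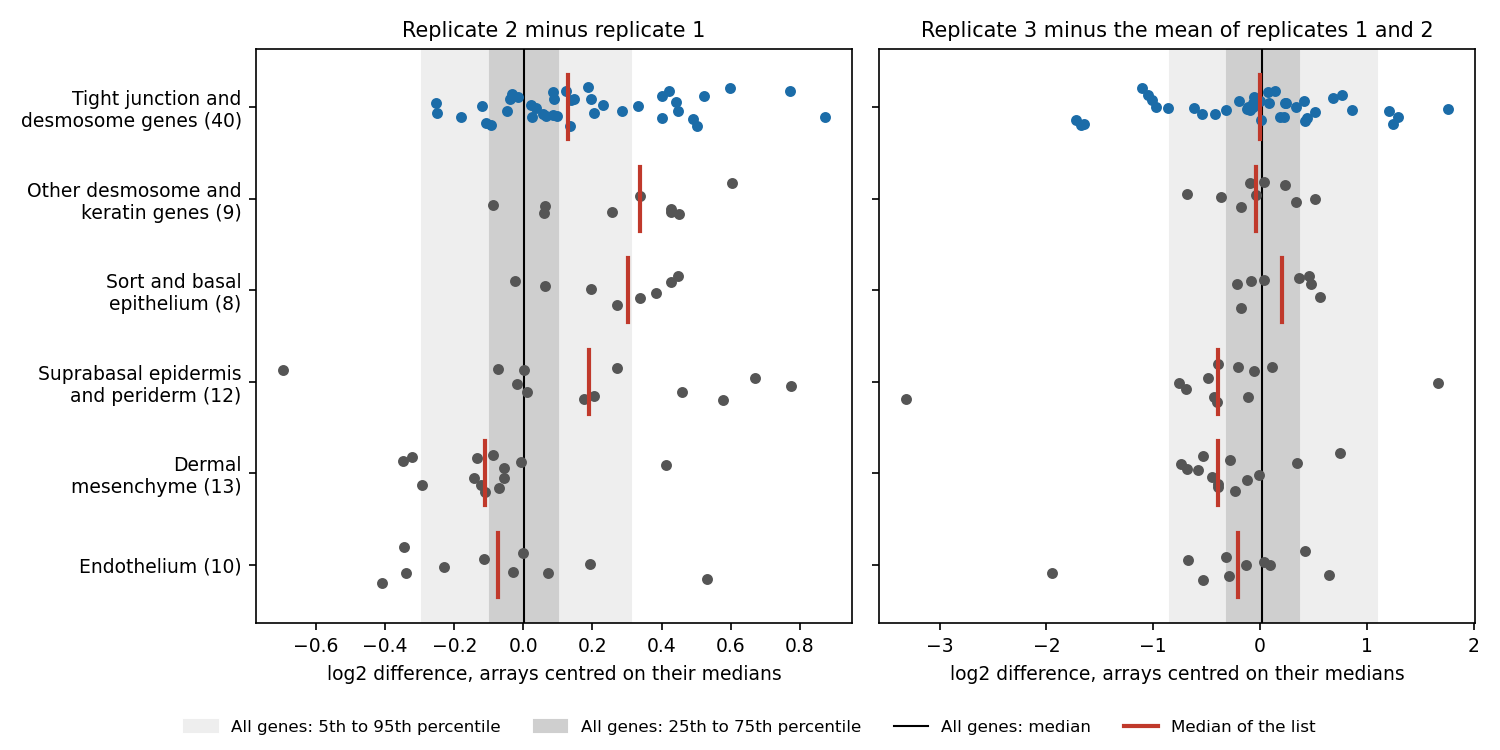
Log2 differences between arrays after centring each on its median, replicate 2 minus replicate 1 on the left and replicate 3 minus the mean of replicates 1 and 2 on the right, with 1 point per gene, a red line at the median of each list, and grey bands for the percentiles of all genes. On the left the junction genes have a median of 0.13, the basal list 0.30 and the mesenchyme list -0.11. On the right the junction genes spread to both sides, with a median of 0.00.

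On replicate 3 junction genes differed in both directions, in numbers near the background share for higher values. Relative to the mean of the other arrays, 8 of 40 were higher by more than 0.5 (18.6% of all genes) and 10 of 40 lower by that much (15.0% of all genes). Those higher were Cldn1, Cldn6, Cgn, Tjp1, Dsc2, Jup, Pkp1 and Pkp4, led by Cgn (1.76), Dsc2 (1.29), Tjp1 (1.24) and Cldn1 (1.21). Those lower were Cldn2, Cldn4, Cldn13, Cldn14, Cldn15, Cldn22, Marveld3, Pard6b, Dsc3 and Pkp2, with Dsc3 (-1.72), Pard6b (-1.67) and Cldn22 (-1.65) furthest down. So Dsc2 and Dsc3 went opposite ways, as did Cldn6 and Cldn4. The second probe set of Dsc2 was likewise highest on replicate 3 (6.54, against 4.24 and 4.80 on replicates 1 and 2), whereas the dimmer probe set of Dsc3 did not repeat the low value of the brighter. Marker lists moved as well: the median difference on replicate 3 was 0.20 for sort and basal epithelial genes, -0.40 for suprabasal and periderm genes, -0.39 for dermal mesenchyme, -0.21 for endothelium, -0.36 for neural crest and nerve genes, -0.35 for leukocyte genes and -0.48 for erythroid genes. Their part in the result was not tested.

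On replicates 1 and 2 fewer genes passed this mark. Relative to the other arrays, replicate 2 was higher by more than 0.5 for 8 of 40 junction genes (4.11% of all genes) and lower for 1, Cgn (6.92% of all genes). The 8 were Cldn3, Cldn4, Cldn13, Cldn22, Marveld3, Pard6b, Dsc3 and Pkp2. Because each array is set against the mean of the others, a low value on replicate 3 raises this difference for replicate 2: Cldn22, Marveld3 and Pkp2 differed between replicates 2 and 1 by 0.09, 0.09 and 0.06. Replicate 1 was higher for 2 of 40, Cldn15 and Cldn22 (4.70% of all genes), and lower for 6 of 40, Cldn1, Cgn, Tjp1, Dsc2, Pkp1 and Pkp4 (8.19% of all genes). The median SD over the 3 arrays was 0.34 for the junction genes and 0.23 for all genes.

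Claudin genes that are neighbours in the genome did not share a call in each case. In the RefSeq annotation of GRCm38.p6, Cldn6 on chromosome 17 is followed by Cldn9, and the first of them was far over the threshold (4.32) while the second was under it (-0.58). Cldn4 and Cldn3, neighbours on chromosome 5, were both above background, as were Ocln and Marveld2 on chromosome 13. The Cldn3 call rested on a probe set that may cross-hybridise, and without such probe sets Cldn3 was under the threshold (-0.91). The Ocln call was lost without replicate 2 and with tissue-restricted genes as background. Cldn1 and Cldn16 on chromosome 16 were not. On chromosome 18, Dsc3 was above background and its neighbours Dsc2 and Dsc1 were not. However, the Dsc3 call was lost without replicate 2 and held in only 9 of the 15 alternative settings.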

How the data were processed

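RNA of 3 litter pools (1 group) was measured on 3 arrays. Values were deposited on a log2 scale, 1 per probe set and array. Per the submitters' processing notes the authors used RMA and the affy package. Versions, settings and the genome build are not given in the sources used here. RMA compresses differences of weak probe sets. Per the labels' protocols, cDNA was amplified for 25 cycles.

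Of 45141 probe sets, 28898 had 1 gene symbol in the platform annotation and were used, 551 had several and 15692 had none listed. A gene with several was represented by the one whose mean was highest. Each gene was tested against the receptor threshold by an intercept fit with a variance trend (limma 3.58.1, R 4.3.3), and the test was checked on simulated data. Python 3.11.15 was used for the rest. No count depth exists for arrays. Litter differences are descriptions. Upstream sequences are from RefSeq (GRCm38.p6).

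The members, lists and tests were chosen with earlier results of these data known. Every member is named. Of each pathway list, in list order, the first 4 genes above background and the first 3 not above it are named, and of each cell type list at most the first 3 and the first 2. The sort, basal keratin and cadherin genes are always named. Snai1, Snai2, Zeb1 and Zeb2 were named outside this rule, after their values were seen. Alternatives covered the threshold, background set, normalization, choice of probe sets, a filter on dim genes, the variance model and each replicate left out. The receptor set without pseudogenes, and the comparison of replicate 2 with replicate 1 with its settings, were added after seeing the data.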

Additional observations from a re-analysis of the deposited data

How the results depend on the processing

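Of 40 junction genes, 18 were above background, and 17 to 21 when 1 replicate was left out. Tissue-restricted genes as background gave 10 (34.4% of all genes), and the brightest antigenomic control gave 9 (31.6% of all genes). The count was within 1.5 times of 18 in the other alternatives (13 to 23), and no paired analysis was possible because there is 1 group. Over 590 gene and setting pairs, 536 kept their call, 20 gained one, 20 lost it with a value still over the threshold and 14 lost it with a value under the threshold. In log2 over the threshold, these 14 and the other named genes that did so were, with tissue-restricted genes, Cldn3 (-0.055), Ocln (-0.35), Tjp3 (-0.19), Tubb3 (-0.13) and Epor (-0.42). With the antigenomic control they were Cldn3 (-0.26), Ocln (-0.55), Tjp3 (-0.39), Pard6b (-0.14), Dsc3 (-0.082), Pard6a (-0.11), Grhl1 (-0.0704), Snai1 (-0.18), Egfl7 (-0.089), Pmel (-0.0502), Tubb3 (-0.33), Fcer1g (-0.092) and Epor (-0.62). With the lowest probe set of a gene, which by construction lowers genes with several, they were Cldn3 (-0.79), Cldn12 (-1.81), Pard3 (-0.12), Dsc3 (-0.43), Cgnl1 (-1.41), Magi1 (-0.90), Pard3b (-0.48), Cdh2 (-0.75), Trp63 (-1.49), Sbsn (-0.65) and Zeb2 (-0.76). The mean of probe sets did so for Cldn12 (-0.23), and leaving out probe sets that may cross-hybridise for Cldn3 (-0.91). Leaving out replicate 1 or replicate 2 ended the call of Epor, and leaving out replicate 1 that of Tubb3.

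Among the litter descriptions, the share of all genes moved with the setting too. The count higher on replicate 2 by over 0.5 was 8 in the reported setting (4.11% of all genes). It was 5 without centring (2.12% of all genes) and 5 with centring on the receptor threshold (2.47% of all genes). The count lower on replicate 2 was 3 rather than 1 without centring (11.2% rather than 6.92% of all genes). That lower on replicate 1 was 12 rather than 6 with centring on the receptor threshold (14.7% rather than 8.19% of all genes). The count lower on replicate 2 than on replicate 1 by over 0.25 was 2 rather than 1 without centring (7.93% of all genes). It was 2 with quantile normalization (7.74% of all genes) and 0 with centring on the receptor threshold (4.92% of all genes). The 13 genes higher on replicate 2 than on replicate 1 numbered 13 to 15 in these settings, beside 7.55% to 11.3% of all genes. Litter differences were not recomputed without a replicate, which would leave 2 arrays. The cause of these changes was not tested. Signal near the threshold limits what can be called.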
